A study of Mus musculus with 16 samples.

Results

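The genes described here are the xenobiotic-metabolising enzyme families of the mouse intestine: cytochromes P450 of families Cyp1 to Cyp4, carboxylesterases (Ces), glutathione S-transferases (Gst), UDP-glucuronosyltransferases (Ugt) and sulfotransferases (Sult). They were taken from the count tables by symbol, with Cyp1 to Cyp4, Ces1 to Ces5, the Gst classes a, m, p, t, k and o, Ugt1 and Ugt2, and every numbered Sult, and 23 symbols marking pseudogenes or RIKEN clones were left out. This gave 159 members in 18 families, of 46882 genes listed. Cyp2 was the largest family with 49 members, followed by Cyp4 with 21 and Sult with 19. The rule used names alone and no measured value, though the members were chosen with earlier results of these data known.

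RNA was sequenced in bulk from sorted epithelial cells of RedMUC298trTg mice aged 6-8 weeks, a strain whose MUC2 mucin transgene carries mCherry, so that goblet cells, the mucus-secreting cells, fluoresce red. The 16 libraries fall into 4 groups of 4. The DC goblet group is mCherry-positive cells of the distal colon, and the DC other group is mCherry-negative cells of the same region, which the labels call colonocytes. The Si8 goblet and Si8 other groups are the mCherry-positive and mCherry-negative cells of section 8 of the small intestine, and the labels call the mCherry-negative ones enterocytes. All 4 groups carry the same transgene and passed the same EDTA strip, collagenase and DNase digestion and viability gate, and the mCherry gate was set on a C57Bl6 mouse. The design asks how goblet cells differ from the remaining epithelium in each region, and how the same sort differs between regions. The labels do not say whether the 4 libraries of a group came from separate mice, so p-values measure only the spread between these libraries.

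Enzymes of these families act in sequence on drugs, plant compounds, bile acids, steroids and fatty acid derivatives. Phase I enzymes, the P450s and carboxylesterases, oxidise or hydrolyse a substrate, and phase II enzymes, the Gst, Ugt and Sult families, attach glutathione, glucuronic acid or sulfate, after which transporters carry the conjugate out of the cell. In the gut this chemistry is best known from absorptive enterocytes, where it limits how much of an oral compound reaches the blood. Many of the genes are controlled by ligand-activated receptors such as the pregnane X receptor (Nr1i2), the aryl hydrocarbon receptor (Ahr) and by the gut and liver factor Hnf4a.

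Levels below are in CPM, counts scaled to the library's total, itself adjusted by a TMM factor set from the bulk of genes. Assigned reads per library numbered 11915081 to 18530171 in DC goblet, 14886439 to 17693513 in DC other, 37439139 to 40533313 in Si8 goblet and 30839377 to 41075589 in Si8 other, so depth went with region. The 8 goblet markers summed to 38562 to 43630 CPM in the DC goblet libraries, against 446 to 588 CPM in the DC other libraries, and to 125831 to 286860 CPM in the Si8 goblet libraries, against 311 to 790 CPM in the Si8 other libraries, and none of them was at 0 in any group. The 7 colonic absorptive markers summed to 328 to 419 CPM in DC goblet and 7171 to 7918 CPM in DC other libraries, with all 7 lower. The 8 small intestinal absorptive markers summed to 1255 to 2283 CPM in Si8 goblet and 12820 to 24651 CPM in Si8 other libraries, with all 8 lower and Apoa4 at 0 in DC other. Paneth cell markers, 6 genes, had 5 higher in DC goblet cells and 6 higher in Si8 goblet cells. They summed to 2652 to 5898 CPM in DC goblet against 10.6 to 26.3 CPM in DC other, with Defa24 at 0 in both. In Si8 they summed to 12047 to 32224 CPM in Si8 goblet against 659 to 1759 CPM in Si8 other. Between regions, 1 of the 6 was higher and 5 were lower in DC goblet than in Si8 goblet cells. Whether the DC goblet sum marks Paneth cells was not tested. Lymphocyte markers were lower in the Si8 goblet sort, with 11.2 to 19.4 CPM in Si8 goblet against 202 to 322 CPM in Si8 other, all 8 lower. Enteroendocrine markers had 6 of 7 lower in each goblet sort, at 66.0 to 92.1 CPM in DC goblet against 419 to 552 CPM in DC other and 114 to 207 CPM in Si8 goblet against 337 to 490 CPM in Si8 other. Mast cell markers, with 1 of 4 tested higher and Fcer1a at 0 in both, summed to 225 to 242 CPM in DC goblet and 7.88 to 11.2 CPM in DC other libraries, where Cpa3 and Tpsb2 were also at 0, and the higher gene, Kit, averaged 231 CPM in DC goblet and 8.34 CPM in DC other cells. In Si8 the list had Kit higher and 3 of 4 tested lower, and summed to 63.3 to 83.0 CPM in Si8 goblet and 35.6 to 198 CPM in Si8 other libraries. Stem cell markers, 4 genes, had 1 lower in DC goblet, at 52.1 to 64.8 CPM in DC goblet against 62.1 to 98.7 CPM in DC other with Olfm4 at 0 in DC other, and 3 higher in Si8 goblet, at 608 to 1076 CPM in Si8 goblet against 495 to 603 CPM in Si8 other. The part of any cells that these lists mark in the enzyme values was not tested. In bulk samples fewer cells of a type and less RNA per cell cannot be told apart. RNA column type also went with the sort, MinElute for goblet and Mini for other cells, and cannot be told apart from it.

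The enzyme genes were a larger part of the RNA of the other epithelial cells than of goblet cells. Over all 159 members, the summed level was 1783 ± 50.3 CPM in DC goblet and 4685 ± 146 CPM in DC other libraries, and 1678 ± 115 CPM in Si8 goblet and 4448 ± 491 CPM in Si8 other libraries (mean ± SD, n = 4 each). The families that made up the sum differed between regions. Cyp2 genes summed to 287 ± 23.1 CPM in DC goblet and 1651 ± 172 CPM in DC other, against 198 ± 12.6 CPM in Si8 goblet and 279 ± 17.8 CPM in Si8 other. Cyp4 genes summed to 98.0 ± 2.54 CPM in DC goblet and 243 ± 15.1 CPM in DC other, against 272 ± 20.1 CPM in Si8 goblet and 1383 ± 262 CPM in Si8 other. Cyp2 was thus the leading P450 family in DC other cells and Cyp4 in Si8 other cells. Ces2 summed to 38.9 ± 3.5002 CPM in DC goblet and 596 ± 17.9 CPM in DC other, and to 184 ± 12.1 CPM in Si8 goblet and 1006 ± 139 CPM in Si8 other. Mean Gstm sums were higher in goblet cells of both regions, at 263 ± 16.9 CPM in DC goblet and 203 ± 32.6 CPM in DC other, and at 55.5 ± 4.66 CPM in Si8 goblet and 36.1 ± 1.95 CPM in Si8 other. The Gstm sums of the DC sorts overlapped, at 237 to 274 CPM in goblet and 176 to 247 CPM in other libraries. Those of the Si8 sorts did not. Ugt2 genes summed to 428 ± 12.4 CPM in DC goblet and 484 ± 13.3 CPM in DC other, and to 321 ± 43.1 CPM in Si8 goblet and 437 ± 51.7 CPM in Si8 other. Gstp genes summed to 63.9 ± 4.13 CPM in DC goblet and 64.5 ± 1.99 CPM in DC other, and to 73.8 ± 8.15 CPM in Si8 goblet and 72.7 ± 2.69 CPM in Si8 other.

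**Figure D1:**
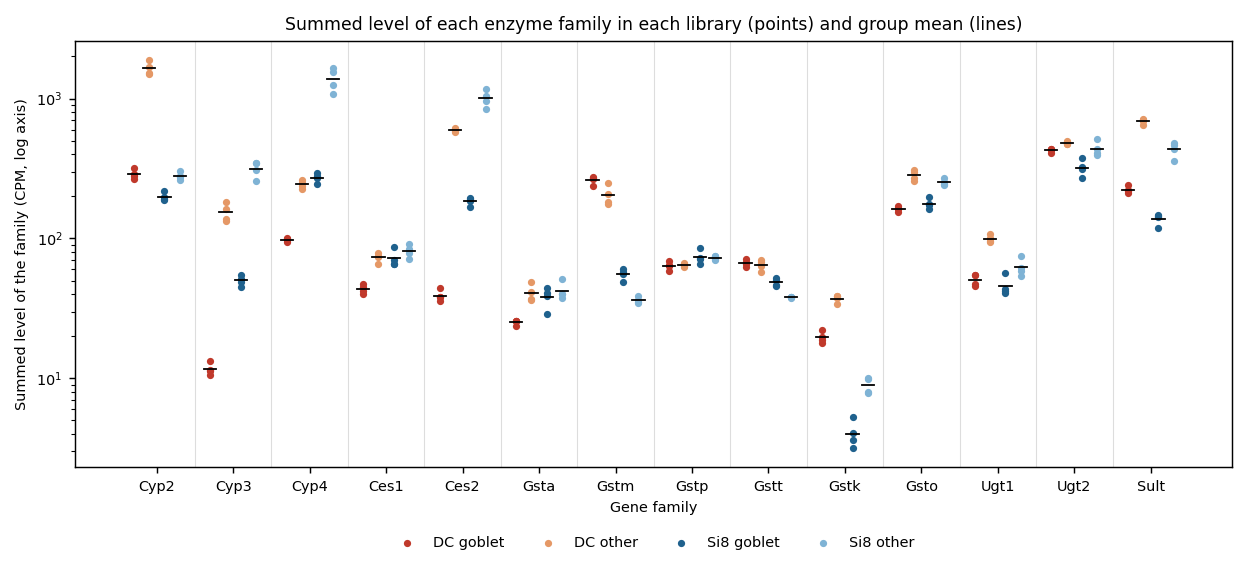
Summed level of each enzyme family in each library (points, CPM on a log axis) and the mean of the 4 libraries of a group (lines), for the 14 families with a summed mean above 1 CPM in a group. Ces2, Cyp3 and Sult sums were lower in goblet than in other libraries in both regions. The mean Gstm sum was highest in the DC goblet group, at 263 ± 16.9 CPM, with libraries that overlapped those of DC other.

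Compared per kilobase of exon, the leading enzyme differed in each sort. In DC goblet cells it was Ugt2b34, a glucuronosyltransferase, at 89.7 ± 2.58 CPM per kb, followed by Gstm1 at 80.2 ± 5.53 and Gsto1 at 80.1 ± 3.63 CPM per kb, and the spreads of Gstm1 and Gsto1 overlapped. Gstm1 can share reads with a near-identical copy, so its place is uncertain. In DC other cells it was Cyp2c55 at 427 ± 54.7 CPM per kb, followed by Gsto1 at 139.6 ± 11.95 and Cyp2d34 at 131 ± 12.8 CPM per kb, and these again overlapped. In Si8 goblet cells Gsto1 came first at 87.6 ± 7.82 CPM per kb, then Ugt2b34 at 65.4 ± 8.59 CPM per kb. In Si8 other cells Cyp4f14 came first at 394 ± 82.9 CPM per kb, then Ces2e at 299 ± 36.4 CPM per kb, and their spreads overlapped. Ranked by CPM and not per length, the 5 highest members of each group held 47.1% of the summed CPM in DC goblet and 47.2% in DC other libraries, and 47.7% in Si8 goblet and 60.7% in Si8 other libraries.

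Of the 159 members, 51 reached a mean of 10 CPM in at least 1 group, 29 were lower, and 79 were near 0, which here means a mean under 0.5 CPM in all 4 groups. No count at all was found for Cyp2a22, Cyp2c29, Cyp3a41a, Sult2a3, Sult2a4 and Sult2a8. Near 0 were 31 of the 49 Cyp2 genes, Cyp2a12, Cyp2a22, Cyp2a4, Cyp2a5, Cyp2ab1, Cyp2b10, Cyp2b13, Cyp2b19, Cyp2b23, Cyp2b9, Cyp2c29, Cyp2c37, Cyp2c38, Cyp2c39, Cyp2c40, Cyp2c50, Cyp2c54, Cyp2c66, Cyp2c67, Cyp2c70, Cyp2d11, Cyp2d40, Cyp2e1, Cyp2g1, Cyp2j11, Cyp2j12, Cyp2j13, Cyp2j5, Cyp2j7, Cyp2j8 and Cyp2t4. Cyp2e1, the ethanol-inducible P450, Cyp2b10, the usual target of the constitutive androstane receptor in mouse liver, and most of the Cyp2a, Cyp2b and Cyp2j genes are in this group. In Cyp3, Cyp3a16, Cyp3a41a, Cyp3a41b, Cyp3a57 and Cyp3a59 were near 0, and in Cyp4 these were Cyp4a10, Cyp4a12a, Cyp4a12b, Cyp4a14, Cyp4a30b, Cyp4a31, Cyp4a32, Cyp4f15, Cyp4f37, Cyp4f39 and Cyp4x1os. Cyp4x1os is a member by its symbol only, since the annotation lists it as an antisense transcript and not as protein-coding. Both other Cyp1 genes, Cyp1a2 and Cyp1b1, were near 0, and Cyp1a1, the classical Ahr target, reached 0.709 CPM in Si8 other cells at most. Among esterases, Ces1a and Ces1h, Ces3a and Ces3b, Ces4a and Ces5a were near 0. Among conjugating enzymes this held for Gsta2, Gstt4, Ugt1a10, Ugt1a8 and Ugt1a9, Ugt2a1, Ugt2a2, Ugt2b1, Ugt2b37 and Ugt2b38 and for 14 of 19 sulfotransferases, Sult1c1, Sult1e1, Sult2a1, Sult2a2, Sult2a3, Sult2a4, Sult2a5, Sult2a6, Sult2a7, Sult2a8, Sult3a1, Sult4a1, Sult5a1 and Sult6b1. The whole Sult2a cluster on chr7:13623967-14494230, whose genes sulfate bile acids and steroids in mouse liver, lay in this class. Some near-0 members can share reads with a near-identical copy, so their low counts are uncertain and need not mean absence. Among P450s these are Cyp2a4, Cyp2a5, Cyp2c40, Cyp2c67, Cyp3a41a, Cyp3a41b, Cyp3a59, Cyp4a10, Cyp4a12a, Cyp4a12b, Cyp4a30b and Cyp4a32. Among conjugating enzymes they are Gsta2, Sult2a1, Sult2a2, Ugt1a8, Ugt1a9, Ugt1a10, Ugt2a1 and Ugt2a2.

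**Figure D2:**
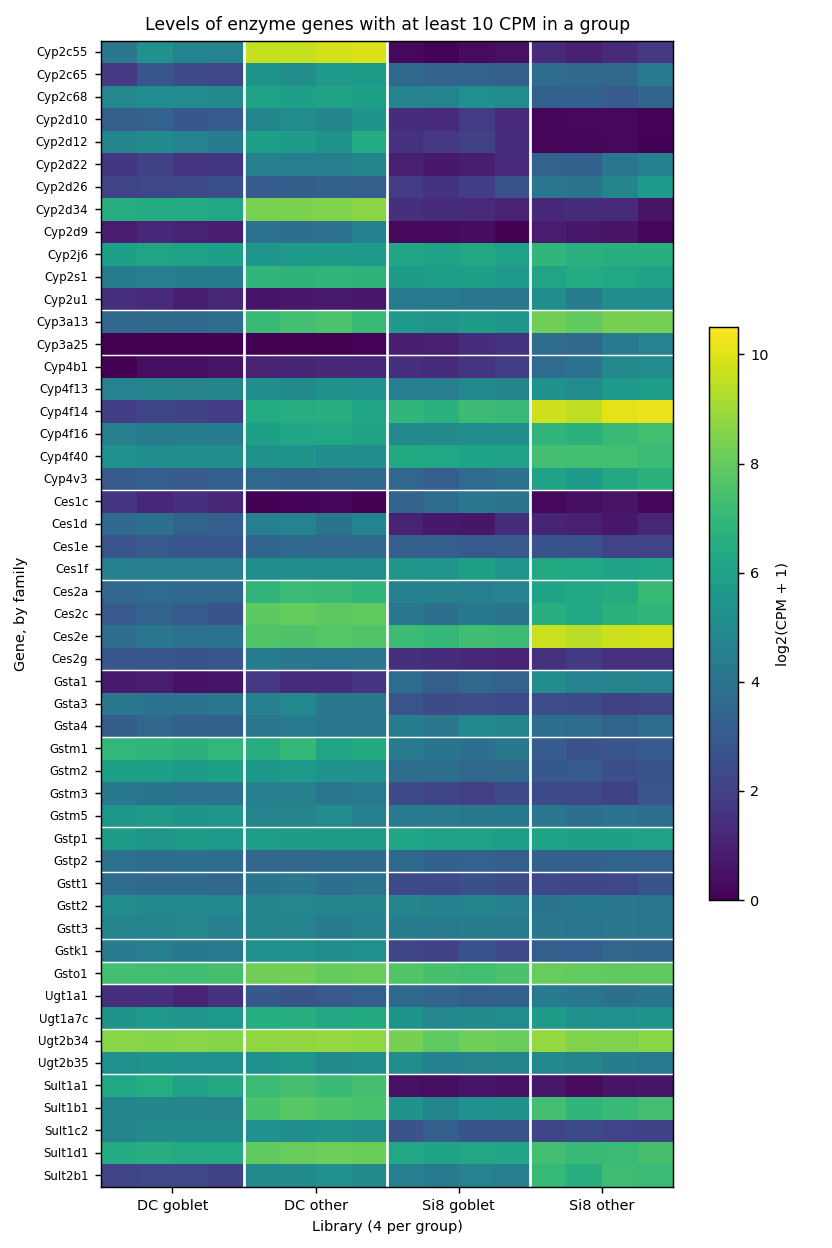
Level of the 51 members whose mean reached 10 CPM in a group (vertical, by family) in each of the 16 libraries (horizontal), as log2(CPM + 1). The brightest blocks are Cyp2c55 in DC other cells, at 758 to 985 CPM, and Cyp4f14 and Ces2e in Si8 other cells.

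A filter on low counts passed 78 members into the test, edgeR's quasi-likelihood test over 16001 genes with Benjamini-Hochberg adjustment, where a call is an adjusted p under 0.05. After a log2 fold change, ± gives an SE worked back from the test. It is the absolute log2 fold change divided by the square root of the F statistic, and not a standard error from the fit. SEs of single effects thus need not combine to that of their difference. A member that passed only through the sort where it is high had to differ, so counts over these 78 describe the tested members and not the families. In DC, 8 tested members were higher and 45 lower in goblet cells and 25 did not pass, against 27.8% of all tested genes higher, 27.9% lower and 55.7% called. Their median log2 fold change was −0.92, against 0.03 over all genes. In Si8, 14 were higher, 42 lower and 22 did not pass, against 33.1% of all genes higher, 31.8% lower and 64.9% called, with a median of −0.48 against 0.03. Goblet and other libraries did not overlap for 50 of the 53 called members in DC, 64.1% of the tested members, and for 48 of the 56 in Si8, 61.5% of the tested members. Over all tested genes, calls without overlap made up 50.4% in DC and 52.7% in Si8. As a share of calls, 94.3% of called members and 90.6% of all called genes were without overlap in DC, and 85.7% and 81.3% in Si8.

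Between regions, 35 members were higher and 26 lower in DC goblet than in Si8 goblet cells, and 17 did not pass, against 30.6% of all genes higher, 31.5% lower and 62.1% called. In other cells 45 were higher and 23 lower in DC and 10 did not pass, against 33.3% of all genes higher, 33.6% lower and 66.9% called, with a median log2 fold change of 0.71 over the members and 0.00 over all genes. In goblet cells that median was 0.04, against −0.02. The goblet effect, the log2 fold change of goblet over other cells within a region, differed between DC and Si8 for 42 members, being higher in DC for 8 and lower for 34, against 15.6% of all genes higher, 16.5% lower and 32.1% called. The median of this difference was −0.57 over the members and −0.03 over all genes. DC and Si8 libraries did not overlap for 59 of the 61 called members in goblet cells, 75.6% of the tested members against 55.1% of all tested genes, and for 65 of the 68 in other cells, 83.3% against 58.4%. As a share of calls this was 96.7% of members and 88.6% of all called genes in goblet cells, and 95.6% and 87.3% in other cells. All 37 mitochondrially encoded genes were at 0 in the DC libraries, while every Si8 library had at least 1193957 counts of them, and a difference in how the region tables were counted cannot be told apart from region in any of the DC over Si8 values.

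With a log2 fold change of at least 1 added to the call, 1 member was higher and 33 lower in DC goblet cells, against 9.16% and 13.5% of all genes, and 8 were higher and 27 lower in Si8 goblet cells, against 8.92% and 14.5%. Between regions 28 were higher and 22 lower in DC goblet cells, against 12.6% and 13.1%, and 32 were higher and 19 lower in DC other cells, against 16.2% and 15.8%. The goblet effect was higher in DC by that much for 5 and lower for 25, against 6.84% and 8.26%.

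In both regions 30 members were lower in goblet cells, among them all 7 Ces2 genes, and 5 were higher, namely Ces1c, Cyp2r1, Gstm1, Gstm2 and Gstm5. Over all tested genes 18.2% were lower and 18.6% higher in both. Lower in DC goblet cells and higher in Si8 goblet cells than in the other cells of the region were 6 members, Ces1e, Cyp2c68, Cyp2d10, Cyp2d12, Gsta4 and Sult1c2. Cyp2j6 and Cyp2u1 had the opposite pair of calls. These pairs of calls held for 2.29% and 2.24% of all tested genes. The difference between regions passed the test for all 8 of these members, but it is made of the same effects that chose them and is not separate evidence.

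Among the phase I enzymes, Cyp2 genes form clusters in the mouse genome, and their expression here differed from neighbour to neighbour. The Cyp2c cluster spans chr19:39007019-40187333 (GRCm38) and holds 14 members, of which 10 were near 0. Cyp2c55 (chr19:39007019-39042693, plus strand), an epoxygenase and hydroxylase of arachidonic and linoleic acid in mouse, stood at 16.9, 38.5, 26.0 and 24.8 CPM in the DC goblet libraries, against 768, 758, 899 and 985 CPM in the DC other libraries. In Si8 it stood at 0.160, 0.0768, 0.224 and 0.391 CPM in the Si8 goblet libraries, against 1.46, 0.955, 1.36 and 2.33 CPM in the Si8 other libraries. No goblet library reached an other library in either region, and the DC other libraries stood above all the rest. The goblet effect was −5.01 ± 0.25, adjusted p = 3.06e-11 in DC and −2.82 ± 0.46, adjusted p = 5.56e-05 in Si8. Between regions the gene was 123-fold higher in DC goblet cells (6.95 ± 0.36, adjusted p = 4.58e-11) and 564-fold higher in DC other cells (9.14 ± 0.31, adjusted p = 1.11e-13).

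Cyp2c65 (chr19:39061015-39093944, plus strand), its neighbour in the cluster, stood at 2.30, 5.95, 4.38 and 3.75 CPM in the DC goblet libraries, against 42.2, 35.1, 50.1 and 51.9 CPM in the DC other libraries. In Si8 it stood at 11.1, 9.22, 9.17 and 8.12 CPM in the Si8 goblet libraries, against 12.2, 11.2, 10.7 and 18.4 CPM in the Si8 other libraries. The DC sorts were far apart and the Si8 sorts overlapped. In DC the goblet effect was −3.48 ± 0.23, adjusted p = 7.15e-10, and in Si8 it was −0.48 ± 0.20, adjusted p = 0.0478, a call lost in 13 of 23 alternative settings, where the adjusted p ranged from 0.00294 to 0.213. Between regions Cyp2c65 was 2.34-fold lower in DC than in Si8 goblet cells and 3.41-fold higher in DC than in Si8 other cells. Its goblet effect differed between regions by −3.001 ± 0.31, adjusted p = 7.8e-07. The 250 bases upstream of each start, which lie in one cluster and in front of genes with unlike Si8 levels, are given from RefSeq (GRCm38.p6, both on the plus strand, Cyp2c55 at chr19:39006769-39007018 and Cyp2c65 at chr19:39060756-39061005). Capitals mark CAAAGTNCA, the core of an Hnf4-type site, sought on both strands, with N any base.
Cyp2c55: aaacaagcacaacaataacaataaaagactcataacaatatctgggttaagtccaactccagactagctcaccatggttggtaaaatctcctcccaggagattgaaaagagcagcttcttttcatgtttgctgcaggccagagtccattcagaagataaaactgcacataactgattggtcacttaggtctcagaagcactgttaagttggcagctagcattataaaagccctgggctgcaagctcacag
Cyp2c65: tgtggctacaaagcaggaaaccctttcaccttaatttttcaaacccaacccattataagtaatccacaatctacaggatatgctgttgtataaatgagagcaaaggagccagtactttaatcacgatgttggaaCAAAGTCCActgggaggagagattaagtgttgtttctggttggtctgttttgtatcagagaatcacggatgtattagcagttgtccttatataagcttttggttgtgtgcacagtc
The window of Cyp2c65 held CAAAGTCCA from 116 bases before the start and that of Cyp2c55 held no match to any motif searched, and the windows, taken to 50 bases past the start, were 53.2% identical. The motif was in 9.93% of 151 member windows and in 1.41% of all 32851 windows, and 8 of the 15 member windows that held it belong to Cyp2c genes, which share ancestry. Its letters were chosen after the data were seen, and a match is only a description of the sequence. Of the other motifs searched on both strands, TNGCGTG, the Ahr core, was in 2.65% of member windows and 5.07% of all windows, and TGACNNNGC, the antioxidant response core, in 5.96% and 12.4%. The Cyp2c65 window also held GCACAGTCA, a match to that core on the minus strand, from 8 bases before the start.

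Cyp2c68, whose reads can be shared with a near-identical copy, stood at 27.8, 33.5, 32.7 and 31.8 CPM in the DC goblet libraries, against 65.3, 60.2, 65.6 and 61.4 CPM in the DC other libraries. In Si8 the order was turned round, with 24.6, 26.1, 37.3 and 33.6 CPM in the Si8 goblet libraries, against 8.49, 8.50, 7.18 and 9.62 CPM in the Si8 other libraries. The libraries did not overlap in either region. Goblet effects were −1.01 ± 0.12, adjusted p = 4.62e-07 in DC and 1.84 ± 0.12, adjusted p = 1.4e-10 in Si8, a difference of −2.85 ± 0.17, adjusted p = 1.93e-10. Goblet cells of the 2 regions overlapped in level (DC over Si8 0.05 ± 0.12, adjusted p = 0.724), while other cells were 7.47-fold higher in DC. Cyp2c69, a low member with shared reads, had 313 counts over the DC other libraries and 2 over the Si8 other libraries, a ratio of 300.2 (95% counting interval 82.4 to 2490). Cyp2c44, which the annotation used here does not list, had 2 counts over the DC goblet and 52 over the DC other libraries, an other-over-goblet ratio of 27.8 (7.32 to 236).

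The Cyp2d cluster on chr15:82370527-82794294 holds 8 members, 6 of them at 10 CPM or more in some group. Cyp2d enzymes oxidise basic drugs and amines, and in mouse the family is expanded. Cyp2d34 (chr15:82615965-82620946, minus strand) stood at 93.1, 88.1, 88.0 and 75.5 CPM in the DC goblet libraries, against 335, 339, 364 and 412 CPM in the DC other libraries. In Si8 it stood at 1.68, 1.54, 1.47 and 1.06 CPM in the Si8 goblet libraries, against 1.32, 1.58, 1.43 and 0.454 CPM in the Si8 other libraries. It was thus a gene of the colon in both sorts, 59.7-fold higher in DC goblet cells (5.90 ± 0.20, adjusted p = 1.55e-14) and 298-fold higher in DC other cells (8.22 ± 0.21, adjusted p = 3.14e-16), and within the colon 4.21-fold lower in goblet cells. The goblet effect in Si8 did not pass (0.25 ± 0.24, adjusted p = 0.383).

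Cyp2d12 and Cyp2d10 reversed their sort between the regions. Cyp2d12 stood at 27.5, 30.2, 24.2 and 20.6 CPM in the DC goblet libraries, against 60.5, 54.0, 39.6 and 86.9 CPM in the DC other libraries. In Si8 Cyp2d12 stood at 1.87, 2.33, 3.13 and 1.51 CPM in the Si8 goblet libraries, against 0.139, 0.151, 0.162 and 0.0324 CPM in the Si8 other libraries. Every DC goblet library was below every DC other library, and every Si8 goblet library was above every Si8 other library. The goblet effect of Cyp2d12 was −1.24 ± 0.21, adjusted p = 7.86e-05 in DC and 4.11 ± 0.45, adjusted p = 5.5e-07 in Si8, and the difference was −5.34 ± 0.50, adjusted p = 3.05e-07. Cyp2d10 had the same pattern at lower levels, with 8.06, 8.90, 6.46 and 7.31 CPM in the DC goblet libraries, against 27.4, 32.3, 26.8 and 42.0 CPM in the DC other libraries. Si8 goblet libraries had 1.58, 1.43, 2.55 and 1.48 CPM of Cyp2d10, against 0.139, 0.176, 0.162 and 0.0648 CPM in Si8 other libraries. Its goblet effects were −2.07 ± 0.17, adjusted p = 3.44e-09 in DC and 3.61 ± 0.32, adjusted p = 1.02e-08 in Si8, with a difference of −5.68 ± 0.36, adjusted p = 4.07e-10. Both genes stood under 1 CPM in every Si8 other library, so their Si8 effects rest on few reads in that group.

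Their neighbours did not share this reversal. Cyp2d9 was lower in goblet cells of both regions, at 0.986 ± 0.275 CPM in DC goblet and 16.5 ± 4.56 CPM in DC other cells (−4.10 ± 0.32, adjusted p = 2.05e-09). In Si8 it was under 1 CPM in both sorts, whose libraries overlapped (−1.58 ± 0.49, adjusted p = 0.00886). Cyp2d22, at one end of the cluster, stood at 2.20, 3.16, 2.08 and 2.22 CPM in the DC goblet libraries, against 22.8, 22.3, 22.3 and 25.7 CPM in the DC other libraries. In Si8 Cyp2d22 stood at 0.882, 0.640, 0.830 and 1.45 CPM in the Si8 goblet libraries, against 9.01, 8.40, 16.6 and 23.3 CPM in the Si8 other libraries. The goblet effects of −3.29 ± 0.31, adjusted p = 1.13e-07 in DC and −3.91 ± 0.32, adjusted p = 1.62e-08 in Si8 did not differ by the test (0.62 ± 0.45, adjusted p = 0.326). Cyp2d26, at the other end of the cluster, had its highest values in Si8 other libraries, 16.6, 15.4, 26.4 and 49.3 CPM, against 2.51, 1.90, 2.84 and 5.36 CPM in Si8 goblet libraries. In DC it had 3.45, 3.90, 4.49 and 4.86 CPM in goblet and 7.30, 7.66, 8.22 and 8.03 CPM in other libraries, which do not overlap, and the DC effect of −0.90 ± 0.39, adjusted p = 0.0627 did not pass but did in 8 of 23 alternative settings, with adjusted p from 2.36e-05 to 0.183. Cyp2d26 was the member of the cluster that was lower in DC than in Si8 other cells (−1.79 ± 0.35, adjusted p = 0.000307), and its goblet effect was less negative in DC by 2.20 ± 0.53, adjusted p = 0.00447. The upstream windows of the colon genes Cyp2d10 and Cyp2d9 and of the Si8 gene Cyp2d26 are given from RefSeq (GRCm38.p6), Cyp2d10 at chr15:82407195-82407444 on the minus strand, Cyp2d9 at chr15:82452127-82452376 on the plus strand and Cyp2d26 at chr15:82794246-82794495 on the minus strand, each 250 bases to the base before the start, with CAAAGTNCA in capitals.
Cyp2d10: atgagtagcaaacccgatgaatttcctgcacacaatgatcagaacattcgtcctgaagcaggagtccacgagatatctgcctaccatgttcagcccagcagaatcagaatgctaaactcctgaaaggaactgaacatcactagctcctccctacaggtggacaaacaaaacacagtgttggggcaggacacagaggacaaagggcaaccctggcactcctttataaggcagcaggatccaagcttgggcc
Cyp2d9: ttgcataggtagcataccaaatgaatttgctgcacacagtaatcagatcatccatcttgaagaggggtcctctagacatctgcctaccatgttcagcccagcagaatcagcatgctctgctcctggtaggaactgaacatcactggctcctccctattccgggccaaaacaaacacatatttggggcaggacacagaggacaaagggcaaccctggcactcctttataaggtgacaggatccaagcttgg
Cyp2d26: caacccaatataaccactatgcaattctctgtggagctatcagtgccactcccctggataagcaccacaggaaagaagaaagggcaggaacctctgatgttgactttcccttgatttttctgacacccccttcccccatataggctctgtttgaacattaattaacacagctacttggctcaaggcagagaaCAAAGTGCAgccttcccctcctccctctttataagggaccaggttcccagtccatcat
With the windows taken to 50 bases past the start, Cyp2d10 and Cyp2d9 were 82.9% identical. Cyp2d26 was 50.3% identical to Cyp2d10 and 50.7% identical to Cyp2d9. CAAAGTGCA began 58 bases before the start of Cyp2d26, and the windows of Cyp2d10 and Cyp2d9 held no match. The motif was in the windows of 4 members at 10 CPM or more, Cyp2c65, Cyp2c68, Cyp2d26 and Sult1b1. In other cells Cyp2c65, Cyp2c68 and Sult1b1 were higher and Cyp2d26 lower in DC than in Si8. In goblet cells Cyp2c65 and Sult1b1 were lower in DC, and Cyp2c68 and Cyp2d26 did not pass. In Si8 goblet cells Cyp2d10 was higher and Cyp2d9 lower than in other cells.

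Of the other Cyp2 genes, Cyp2s1, a P450 known to be inducible through Ahr and present in many epithelia, stood at 20.0, 22.4, 20.0 and 21.01 CPM in the DC goblet libraries, against 119, 113, 121 and 113 CPM in the DC other libraries. In Si8 Cyp2s1 stood at 52.8, 58.2, 60.3 and 49.6 CPM in the Si8 goblet libraries, against 69.0, 86.5, 76.4 and 65.6 CPM in the Si8 other libraries. It was lower in goblet cells of both regions, by −2.48 ± 0.09, adjusted p = 2.81e-14 in DC and by −0.43 ± 0.08, adjusted p = 0.000205 in Si8, and the difference passed (−2.05 ± 0.12, adjusted p = 2.14e-10). Cyp2j6, an arachidonic acid epoxygenase of the mouse intestine, went opposite ways. It stood at 60.3, 68.7, 63.5 and 60.04 CPM in the DC goblet libraries, against 44.4, 48.4, 48.9 and 50.2 CPM in the DC other libraries. In Si8 Cyp2j6 stood at 74.3, 63.9, 76.5 and 63.8 CPM in the Si8 goblet libraries, against 119, 101, 93.8 and 95.9 CPM in the Si8 other libraries. Goblet cells were higher in DC (0.40 ± 0.09, adjusted p = 0.000777) and lower in Si8 (−0.56 ± 0.09, adjusted p = 1.38e-05), with no overlap in either. Cyp2u1, a fatty acid hydroxylase, was low in DC with 1.28 ± 0.373 CPM in goblet and 0.639 ± 0.0798 CPM in other cells, and reached 18.0 ± 1.45 CPM in goblet and 31.5 ± 7.26 CPM in other cells of Si8. It was 14.1-fold lower in DC goblet (−3.82 ± 0.20, adjusted p = 2.98e-12) and 49.2-fold lower in DC other cells (−5.62 ± 0.22, adjusted p = 2.9e-14), and its goblet effect was higher in DC by 1.80 ± 0.34, adjusted p = 0.000395. The low member Cyp2r1, the vitamin D hydroxylase of liver and other tissues, was higher in goblet cells of both regions, at 3.55 ± 0.879 CPM in DC goblet and 2.25 ± 0.720 CPM in DC other cells (0.65 ± 0.25, adjusted p = 0.0301). In Si8 it averaged 1.56 ± 0.441 CPM in goblet and 0.977 ± 0.131 CPM in other cells (0.67 ± 0.26, adjusted p = 0.0272). Cyp2f2 was a low member of the colon, at 4.91 ± 0.697 CPM in DC goblet and 9.21 ± 0.716 CPM in DC other cells, against 0.0414 ± 0.0142 CPM in Si8 goblet and 0.0905 ± 0.0505 CPM in Si8 other cells.

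Cyp3 enzymes oxidise a wide range of drugs and steroids, and in these sorts the family consisted mostly of Cyp3a13 (chr5:137892932-137921619, minus strand), which lies apart from the Cyp3a cluster. Cyp3a13 stood at 10.41, 11.47, 11.1 and 12.96 CPM in the DC goblet libraries, against 133, 161, 181 and 138 CPM in the DC other libraries. In Si8 Cyp3a13 stood at 50.3, 43.8, 53.0 and 46.5 CPM in the Si8 goblet libraries, against 296, 244, 325 and 312 CPM in the Si8 other libraries. All 4 groups were separate, in the order Si8 other, DC other, Si8 goblet, DC goblet. The goblet effect was −3.74 ± 0.12, adjusted p = 5.38e-15 in DC and −2.60 ± 0.11, adjusted p = 2.73e-13 in Si8, and the difference passed (−1.13 ± 0.16, adjusted p = 1.25e-05). Cyp3a25, from the cluster on chr5:145345279-146113287, was a gene of Si8, with 0.8285, 0.897, 1.501 and 1.93 CPM in goblet and 12.1, 11.46, 18.7 and 24.4 CPM in other libraries (−3.70 ± 0.30, adjusted p = 5.08e-08). It had 0 counts over the DC goblet libraries and 1 over the DC other libraries, so that it was at least 30.7-fold lower in DC goblet than in Si8 goblet cells, and the ratio of Si8 other to DC other was 1113 (95% counting interval 199 to 43966). Cyp3a11, the main hepatic Cyp3a of mouse, had 371 counts over the Si8 other libraries and 0 over the DC other libraries, at least 64.5-fold lower in DC other cells.

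Cyp4 enzymes hydroxylate fatty acids and eicosanoids at the end of the chain. Cyp4f14 (chr17:32905070-32917342, minus strand), which inactivates leukotrienes and oxidises vitamin E in mouse, stood at 2.88, 3.602, 3.12 and 2.78 CPM in the DC goblet libraries, against 85.0, 91.1, 95.2 and 71.2 CPM in the DC other libraries. In Si8 Cyp4f14 stood at 121, 104, 146 and 135 CPM in the Si8 goblet libraries, against 853, 723, 1086 and 1153 CPM in the Si8 other libraries. The groups did not overlap, and every Si8 goblet library was above every DC other library. Its goblet effect was −4.80 ± 0.18, adjusted p = 2.98e-14 in DC and −2.92 ± 0.14, adjusted p = 2.32e-12 in Si8, differing by −1.89 ± 0.22, adjusted p = 1.56e-06. Between regions the gene was 41.2-fold lower in DC goblet (−5.36 ± 0.18, adjusted p = 3.07e-15) and 11.1-fold lower in DC other cells (−3.48 ± 0.15, adjusted p = 1.01e-13). Its neighbours in the cluster on chr17:32452723-32947402 differed less. Cyp4f16 was lower in goblet cells by −1.67 ± 0.11, adjusted p = 1.39e-10 in DC and by −1.97 ± 0.11, adjusted p = 7.93e-12 in Si8, with means of 21.3 CPM in DC goblet and 67.8 CPM in DC other cells. Cyp4f13 was lower in both as well (−0.52 ± 0.15, adjusted p = 0.00602 in DC; −0.87 ± 0.14, adjusted p = 3.52e-05 in Si8). Cyp4f40 had 38.8, 32.4, 36.5 and 35.6 CPM in DC goblet and 41.3, 41.9, 34.2 and 34.1 CPM in DC other libraries, which overlap (−0.08 ± 0.10, adjusted p = 0.51). In Si8 the Cyp4f40 sorts were apart, with 82.8, 76.9, 67.1 and 64.1 CPM in the Si8 goblet libraries, against 163, 158, 157 and 144 CPM in the Si8 other libraries (−1.10 ± 0.09, adjusted p = 3.94e-09). Cyp4v3, a fatty acid hydroxylase whose human counterpart is mutated in a retinal dystrophy, had the same form, with a DC effect that did not pass (−0.47 ± 0.22, adjusted p = 0.081, passing in 5 of 23 alternative settings with adjusted p from 0.0011 to 0.173) and 10.2, 7.89, 11.7 and 14.3 CPM in the Si8 goblet libraries, against 64.4, 49.0, 80.3 and 106 CPM in the Si8 other libraries (−2.77 ± 0.20, adjusted p = 2.31e-09). The goblet effect was less negative in DC for both, by 1.02 ± 0.13, adjusted p = 6.47e-06 for Cyp4f40 and by 2.30 ± 0.29, adjusted p = 1.13e-05 for Cyp4v3. Cyp4b1 was mainly found in Si8 other cells, with 11.9, 14.4, 29.5 and 32.9 CPM, against 1.74, 1.49, 2.08 and 2.79 CPM in Si8 goblet libraries (−3.45 ± 0.31, adjusted p = 4.96e-08), and was 18.9-fold lower in DC other cells (−4.24 ± 0.36, adjusted p = 1.66e-08). Within the Si8 other group, libraries 3 and 4 held the higher values of Cyp2d22, Cyp2d26, Cyp4b1 and Cyp4v3, and in the Si8 goblet group libraries 3 and 4 held those of Cyp2d26, Cyp4b1 and Cyp4v3.

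Carboxylesterases of the Ces2 group, on chr8:104734003-105150109 together with Ces3 and Ces4, hydrolyse ester prodrugs and neutral lipids in the small intestine and liver. All 7 Ces2 genes were lower in goblet cells of both regions, against 27.9% of all genes in DC and 31.8% in Si8, with a median log2 fold change of −3.56 in DC and −1.97 in Si8. Ces2c (chr8:104847068-104854483, plus strand) stood at 6.54, 8.75, 6.78 and 5.51 CPM in the DC goblet libraries, against 232, 259, 233 and 246 CPM in the DC other libraries. In Si8 Ces2c stood at 17.5, 13.7, 18.1 and 15.6 CPM in the Si8 goblet libraries, against 94.4, 78.1, 106 and 119.8 CPM in the Si8 other libraries. The sorts did not overlap, and the DC other libraries were highest. Goblet effects were −5.15 ± 0.15, adjusted p = 1.34e-15 in DC (35.6-fold lower) and −2.62 ± 0.13, adjusted p = 2.37e-12 in Si8, and differed by −2.53 ± 0.19, adjusted p = 4.24e-09. Ces2e (chr8:104926260-104934672, plus strand) was highest in Si8 other cells instead. Ces2e stood at 12.5, 16.5, 14.1 and 15.2 CPM in the DC goblet libraries, against 199, 191, 214 and 199.96 CPM in the DC other libraries. In Si8 it stood at 146, 127, 152 and 142 CPM in the Si8 goblet libraries, against 798, 677, 841 and 912 CPM in the Si8 other libraries. Its goblet effect was −3.79 ± 0.11, adjusted p = 1.09e-15 in DC and −2.51 ± 0.10, adjusted p = 9.25e-14 in Si8. Ces2a, with 10.9 CPM in DC goblet and 128 CPM in DC other cells, followed Ces2c (−3.56 ± 0.17, adjusted p = 2.51e-12 in DC; −1.98 ± 0.15, adjusted p = 1.97e-09 in Si8). Ces2g was mainly found in the colon, with 6.12, 6.03, 5.63 and 6.06 CPM in the DC goblet libraries, against 20.0, 17.0, 16.5 and 16.6 CPM in the DC other libraries (−1.55 ± 0.14, adjusted p = 1.01e-08). Its Si8 effect was smaller (−0.48 ± 0.16, adjusted p = 0.0137) and was lost in 4 of 23 alternative settings, with adjusted p from 0.00402 to 0.0782.

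The residual level of these genes in goblet sorts can be set beside that of absorptive markers. The summed colonic absorptive markers of DC goblet libraries were 4.79% of those of DC other libraries, and on the same scale Ces2c was at 2.84%, Cyp2c55 at 3.12%, Cyp4f14 at 3.61%, Ces2e at 7.25% and Cyp3a13 at 7.48%. In Si8 the summed small intestinal absorptive markers stood at 9.73%, Cyp4f14 at 13.3%, Cyp2c55 at 13.9%, Ces2c at 16.3%, Cyp3a13 at 16.4% and Ces2e at 17.6%. Taken singly, the 7 colonic markers stood at 1.59% to 20.4% in DC with a median of 2.68%, and the 8 small intestinal markers at 4.02% to 19.7% in Si8 with a median of 6.94%, so all 5 enzymes lay within the range of the markers of their region and above the median. These 5 are examples with a low share, and other members differed. Cyp2d22 stood at 6.64% in Si8, below the median, and Gsto1 at 57.4% in DC and 70.2% in Si8, above the range. The colonic markers of Si8 summed to 38.0% in goblet of other cells, above all 5 enzymes there. The part of absorptive cells among the sorted goblet cells in these values was not tested.

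The Ces1 group lies in another cluster on chr8:93020214-93535830 and did not move as one. Ces1c (chr8:93099015-93131283, minus strand), the secreted carboxylesterase of mouse plasma, was higher in goblet cells of both regions. It stood at 2.04, 1.25, 1.70 and 1.20 CPM in the DC goblet libraries, against 0.0526, 0.0594, 0.130 and 0 CPM in the DC other libraries. In Si8 it stood at 9.01, 12.2, 17.5 and 15.7 CPM in the Si8 goblet libraries, against 0.174, 0.327, 0.487 and 0.130 CPM in the Si8 other libraries. No other library reached a goblet library of its region. Its effect was 4.61 ± 0.57, adjusted p = 1.05e-06 in DC, which rests on 4 counts over the DC other libraries, and 5.56 ± 0.30, adjusted p = 7.5e-12 in Si8 (47.1-fold higher), and the difference did not pass (−0.95 ± 1.13, adjusted p = 0.562). Between regions Ces1c was 8.70-fold lower in DC goblet cells (−3.12 ± 0.26, adjusted p = 2.86e-09). Liver markers, 6 genes, summed to 42.8 to 82.6 CPM in Si8 goblet and 52.1 to 70.1 CPM in Si8 other libraries, with Serpina1a at 0 in Si8 goblet, and 3 of 5 tested, Apoh, Fgb and Ttr, were higher and none lower in Si8 goblet cells. In DC they summed to 72.9 to 76.1 CPM in goblet and 90.8 to 104 CPM in other libraries, with Serpina1a and Fgb at 0 in DC other, and Alb and Ttr were higher and Tat lower in goblet cells. Their part in the Ces1c values was not tested. Ces1d, a triglyceride hydrolase of fat and liver, was found in the colon, at 10.99, 13.2, 9.36 and 8.15 CPM in the DC goblet libraries, against 21.2, 25.1, 15.5 and 25.3 CPM in the DC other libraries (−1.07 ± 0.22, adjusted p = 0.000398). In Si8 it averaged 0.953 CPM in goblet and 0.943 CPM in other cells, and it was 10.7-fold higher in DC goblet cells (3.43 ± 0.27, adjusted p = 2.62e-09). Ces1e was lower in DC goblet cells (−0.76 ± 0.16, adjusted p = 0.000475) and higher in Si8 goblet cells (0.73 ± 0.15, adjusted p = 0.000428). Ces1f was lower in both by like amounts (−0.62 ± 0.10, adjusted p = 3.72e-05 in DC; −0.60 ± 0.10, adjusted p = 2.38e-05 in Si8), and its difference of −0.02 ± 0.14, adjusted p = 0.935 did not pass.

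**Figure D3:**
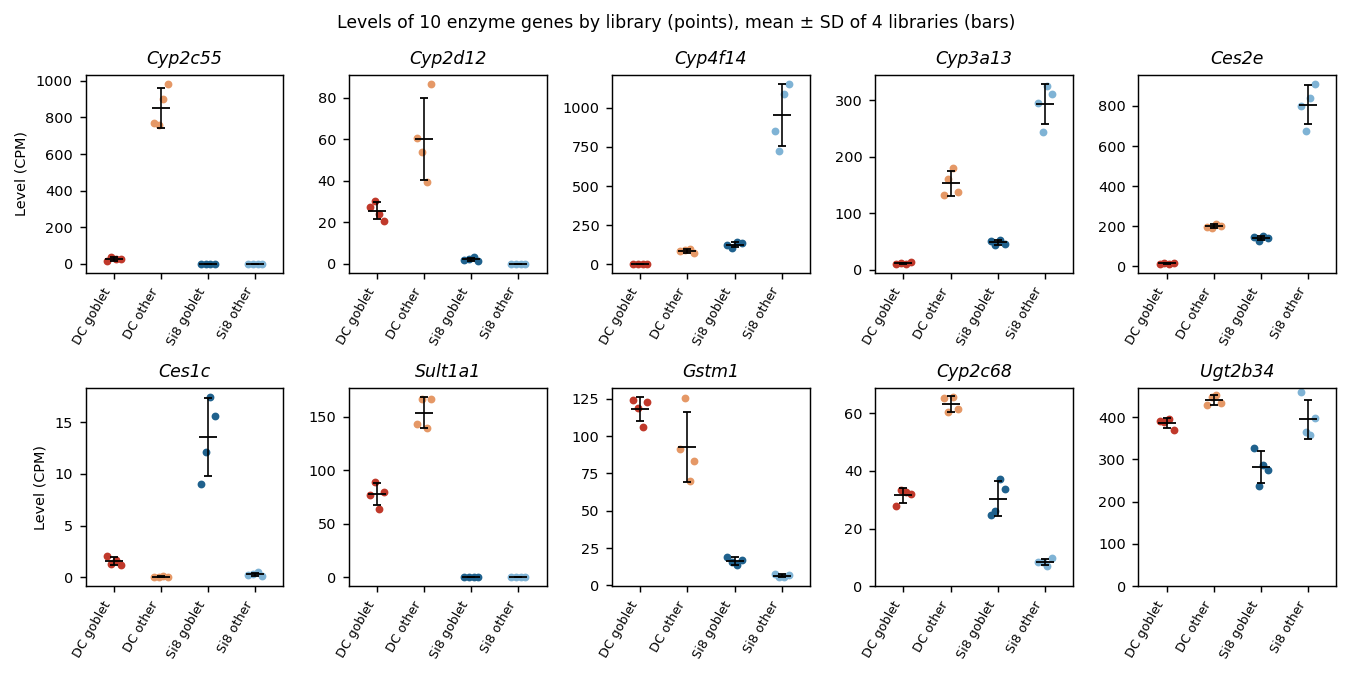
Level in CPM of 10 members in each library (points) with the mean ± SD of the 4 libraries of a group (bars), in the order DC goblet, DC other, Si8 goblet, Si8 other. Cyp2d12 and Cyp2c68 are below other cells in DC goblet and above other cells in Si8 goblet, Ces1c is highest in Si8 goblet at 9.01 to 17.5 CPM, and Sult1a1 is at 64.1 CPM or more in every DC library and under 1 CPM in Si8.

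Among phase II enzymes, the glutathione S-transferases of the mu class (Gstm, chr3:107895821-108044894) had 3 of 7 genes higher in goblet cells of each region, and 1 lower in Si8, against 27.8% of all genes higher in DC and 33.1% in Si8. All 7 Gstm genes passed the test as higher in DC than in Si8 in both sorts, with a median log2 fold change of 2.32 in goblet and 2.47 in other cells. Gstm1, whose reads can be shared with a near-identical copy, stood at 124, 119, 106 and 123 CPM in the DC goblet libraries, against 91.3, 125, 70.1 and 83.3 CPM in the DC other libraries. In Si8 Gstm1 stood at 19.1, 15.4, 13.3 and 17.3 CPM in the Si8 goblet libraries, against 7.38, 5.48, 5.85 and 6.999 CPM in the Si8 other libraries. The DC sorts overlapped, because of the second DC other library, and the Si8 sorts did not. The Si8 effect was 1.35 ± 0.16, adjusted p = 6.85e-07, and the DC effect of 0.35 ± 0.14, adjusted p = 0.0434 was lost in 11 of 23 alternative settings, with adjusted p from 0.00103 to 0.205. Gstm1 was 7.24-fold higher in DC goblet (2.86 ± 0.15, adjusted p = 1.39e-11) and 14.4-fold higher in DC other cells (3.85 ± 0.17, adjusted p = 3.36e-13).

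Gstm5 and Gstm2 were higher in goblet cells of the colon too. Gstm5 stood at 46.4, 48.4, 42.2 and 45.6 CPM in the DC goblet libraries, against 25.9, 26.8, 32.1 and 22.7 CPM in the DC other libraries. In Si8 Gstm5 stood at 19.1, 19.4, 17.4 and 18.2 CPM in the Si8 goblet libraries, against 16.2, 13.1, 15.1 and 13.03 CPM in the Si8 other libraries. No goblet library overlapped an other library in either region, and the effects were 0.77 ± 0.10, adjusted p = 1.83e-06 in DC and 0.37 ± 0.10, adjusted p = 0.00298 in Si8. The difference of 0.40 ± 0.14, adjusted p = 0.036 was lost in 14 of 22 alternative settings, with adjusted p from 0.0168 to 0.104. Gstm2 stood at 61.2, 60.4, 51.5 and 61.6 CPM in the DC goblet libraries, against 47.0, 48.8, 40.5 and 38.2 CPM in the DC other libraries (0.43 ± 0.11, adjusted p = 0.00229). In Si8 Gstm2 averaged 11.7 ± 1.137 CPM in goblet and 5.87 ± 0.942 CPM in other cells (0.99 ± 0.12, adjusted p = 4.99e-07). Gstm3 overlapped between the sorts of both regions, and neither effect passed (−0.37 ± 0.16, adjusted p = 0.0542 in DC, passing in 11 of 23 alternative settings with adjusted p from 0.0109 to 0.231; −0.16 ± 0.17, adjusted p = 0.437 in Si8). Of the low members, Gstm4 and Gstm7 passed in neither region and Gstm6 was lower in Si8 goblet cells (−0.52 ± 0.18, adjusted p = 0.0177).

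The alpha class (Gsta) detoxifies products of lipid peroxidation. Gsta4, which conjugates hydroxynonenal, reversed between the regions. It stood at 7.64, 10.1, 8.48 and 8.24 CPM in the DC goblet libraries, against 16.7, 18.4, 16.5 and 17.2 CPM in the DC other libraries. In Si8 Gsta4 stood at 20.8, 16.7, 28.5 and 27.6 CPM in the Si8 goblet libraries, against 12.7, 12.2, 9.49 and 11.6 CPM in the Si8 other libraries. Neither pair of groups overlapped, and the effects were −1.002 ± 0.15, adjusted p = 1.5e-05 in DC and 1.02 ± 0.14, adjusted p = 4.13e-06 in Si8, a difference of −2.02 ± 0.21, adjusted p = 3.85e-07. Gsta1, with shared reads, was a gene of Si8, at 12.03, 7.97, 10.8 and 8.90 CPM in the Si8 goblet libraries, against 34.3, 23.9, 24.8 and 24.4 CPM in the Si8 other libraries (−1.43 ± 0.14, adjusted p = 5.24e-08). In DC it averaged 0.591 CPM in goblet and 1.90 CPM in other cells, and it was 14.0-fold lower in DC than in Si8 other cells (−3.81 ± 0.18, adjusted p = 4.28e-13). Gsta3 was higher in the colon, by 1.76 ± 0.16 in goblet and 2.49 ± 0.17 in other cells. Gsto1, of the omega class, which reduces dehydroascorbate and arsenic compounds, was lower in goblet cells of both regions (−0.80 ± 0.08, adjusted p = 5.47e-08 in DC; −0.51 ± 0.08, adjusted p = 1.58e-05 in Si8) and passed in neither region comparison, though that of other cells passed in 4 of 23 alternative settings, with adjusted p from 0.00266 to 0.325. It held 166, 161, 153 and 169.6 CPM in the DC goblet libraries, against 297, 308, 256 and 269 CPM in the DC other libraries. Gstk1, of the mitochondrial and peroxisomal kappa class, was lower in goblet cells (−0.92 ± 0.12, adjusted p = 2.86e-06 in DC; −1.15 ± 0.13, adjusted p = 3.62e-07 in Si8) and higher in the colon, at 19.6 ± 1.76 CPM in DC goblet against 4.02 ± 0.902 CPM in Si8 goblet cells.

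Differences were smaller in the pi class and, between sorts, in the theta class. Gstp1, with shared reads, held 50.7 ± 3.32 CPM in DC goblet and 53.8 ± 2.44 CPM in DC other cells, and 64.5 ± 6.62 CPM in Si8 goblet and 63.9 ± 2.80 CPM in Si8 other cells. Neither goblet effect of Gstp1 passed (−0.08 ± 0.08, adjusted p = 0.377 in DC; 0.01 ± 0.08, adjusted p = 0.885 in Si8), and its lower DC level in other cells (−0.25 ± 0.08, adjusted p = 0.00825) took the opposite sign without scaling of the totals. Gstp2, with shared reads, was higher in DC goblet cells by 0.29 ± 0.11, adjusted p = 0.0317, a call lost in 9 of 23 alternative settings with adjusted p from 0.0115 to 0.112. Gstt2 was higher in Si8 goblet cells, at 27.4, 23.6, 25.3 and 23.0 CPM in the Si8 goblet libraries, against 15.5, 18.0, 17.3 and 16.4 CPM in the Si8 other libraries (0.56 ± 0.08, adjusted p = 4.84e-06). Gstt1 was lower in DC goblet cells (−0.41 ± 0.13, adjusted p = 0.0107), and Gstt3 passed in neither region. All 3 theta genes were higher in the colon in both sorts. In goblet and other cells the log2 fold changes were 1.40 and 1.84 for Gstt1 and 0.40 and 0.47 for Gstt3. Those of Gstt2 were 0.26 and 0.64. The goblet call of Gstt2 was lost in 1 of 23 alternative settings, with adjusted p from 0.000105 to 0.169. Its size there cannot be told apart from scaling.

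Glucuronosyltransferases attach glucuronic acid to bilirubin, bile acids, steroids and drugs. The Ugt1a genes on chr1:88055388-88220002 share their last exons. How the counting treated reads of these exons is not known here, and the values of the Ugt1a genes are uncertain. Ugt1a7c held 42.1, 50.7, 44.3 and 50.3 CPM in the DC goblet libraries, against 89.4, 97.03, 80.6 and 82.6 CPM in the DC other libraries (−0.90 ± 0.12, adjusted p = 3.24e-06). In Si8 its sorts overlapped, at 33.4 ± 6.04 CPM in goblet and 42.8 ± 6.86 CPM in other cells (−0.36 ± 0.12, adjusted p = 0.0142, lost in 3 of 23 alternative settings with adjusted p from 0.00111 to 0.0755). Ugt1a1, the bilirubin-conjugating enzyme, was higher in Si8 than in DC, at 1.60 CPM in DC goblet against 9.38 CPM in Si8 goblet cells (−2.54 ± 0.18, adjusted p = 3.31e-10). It was lower in goblet cells of both regions, by −2.03 ± 0.19, adjusted p = 1.94e-08 in DC and by −0.79 ± 0.14, adjusted p = 7.92e-05 in Si8.

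The Ugt2 genes share the region chr5:86889767-87591594 with the Sult1 genes of that chromosome. Ugt2b34 (chr5:86889767-86906937, minus strand) was abundant in all 4 groups. It stood at 391, 388, 396 and 371 CPM in the DC goblet libraries, against 428, 448, 453 and 434 CPM in the DC other libraries. In Si8 Ugt2b34 stood at 328, 238, 287 and 276 CPM in the Si8 goblet libraries, against 459, 366, 357 and 399 CPM in the Si8 other libraries. The DC sorts were close and did not overlap, yet the effect did not pass (−0.19 ± 0.09, adjusted p = 0.0926), and passed in 5 of 23 alternative settings, with adjusted p from 0.00502 to 0.562. The Si8 effect was −0.48 ± 0.09, adjusted p = 0.000159, and the difference between regions did not pass (0.30 ± 0.13, adjusted p = 0.0957). Ugt2b35 passed in neither goblet comparison (0.05 ± 0.14, adjusted p = 0.805 in DC; 0.20 ± 0.14, adjusted p = 0.228 in Si8) and was higher in the colon in both sorts. The low members Ugt2b5 and Ugt2b36 went with Si8, Ugt2b5 at 1.33 ± 0.490 CPM in DC goblet against 6.45 ± 0.996 CPM in Si8 goblet cells. Ugt2a3 had 1 count over the DC goblet libraries and 128 over the Si8 goblet libraries, a Si8-over-DC ratio of 64.7 (95% counting interval 11.4 to 2576).

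Sulfotransferases add sulfate to phenols, catecholamines, steroids and thyroid hormone. Sult1a1 (chr7:126672865-126676432, minus strand), the main phenol sulfotransferase, was low in Si8. It stood at 77.2, 89.1, 64.1 and 80.1 CPM in the DC goblet libraries, against 0.401, 0.307, 0.511 and 0.446 CPM in the Si8 goblet libraries. Other cells held 144, 166, 139 and 167 CPM in DC, against 0.592, 0.251, 0.487 and 0.551 CPM in Si8. No DC library was within reach of a Si8 library, with 186-fold higher levels in DC goblet (7.54 ± 0.17, adjusted p = 9.2e-18) and 334-fold higher levels in DC other cells (8.38 ± 0.17, adjusted p = 1.26e-18). In DC it was lower in goblet cells (−0.99 ± 0.11, adjusted p = 2.55e-07). Sult1b1, which sulfates phenols and thyroid hormone, stood at 25.4, 26.4, 25.5 and 24.8 CPM in the DC goblet libraries, against 179.7, 217, 196 and 177 CPM in the DC other libraries. In Si8 Sult1b1 stood at 39.7, 27.1, 38.8 and 40.9 CPM in the Si8 goblet libraries, against 164, 118, 137 and 162 CPM in the Si8 other libraries. It was lower in goblet cells of both regions without overlap, by −2.91 ± 0.13, adjusted p = 3.67e-13 in DC and by −1.98 ± 0.12, adjusted p = 4.75e-11 in Si8. Sult1d1, a catecholamine sulfotransferase of mouse, was lower in goblet cells by −1.65 ± 0.09, adjusted p = 4.66e-12 in DC, where it held 86.8 CPM in goblet and 273 CPM in other cells, and by −1.08 ± 0.09, adjusted p = 1.88e-09 in Si8.

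Sult2b1, the cholesterol sulfotransferase, was the member of the family that stood higher in Si8 in both sorts. It held 3.45, 3.82, 3.83 and 3.19 CPM in the DC goblet libraries, against 31.7, 31.1, 38.4 and 29.6 CPM in the DC other libraries (−3.20 ± 0.15, adjusted p = 6.85e-13). In Si8 it held 22.1, 18.5, 24.2 and 21.9 CPM in the Si8 goblet libraries, against 129, 96.99, 150.2 and 143 CPM in the Si8 other libraries (−2.58 ± 0.12, adjusted p = 1.27e-12). The goblet libraries lay below the other libraries in each region, and DC was 6.08-fold lower in goblet cells (−2.60 ± 0.15, adjusted p = 8.95e-12). Sult1c2 was lower in DC goblet cells (−0.33 ± 0.11, adjusted p = 0.0174) and higher in Si8 goblet cells (0.79 ± 0.13, adjusted p = 2.69e-05), the DC call being lost without DC goblet library 1 and without scaling of the totals. For all 5 tested sulfotransferases the goblet effect was lower in DC than in Si8, Sult1a1 by −0.84 ± 0.30, Sult1b1 by −0.93 ± 0.17, Sult1c2 by −1.13 ± 0.17, Sult1d1 by −0.58 ± 0.12 and Sult2b1 by −0.62 ± 0.19, against 16.5% of all genes. The difference of Sult1a1 was lost in 8 of 22 alternative settings, with adjusted p from 0.00903 to 0.107.

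**Figure D4:**
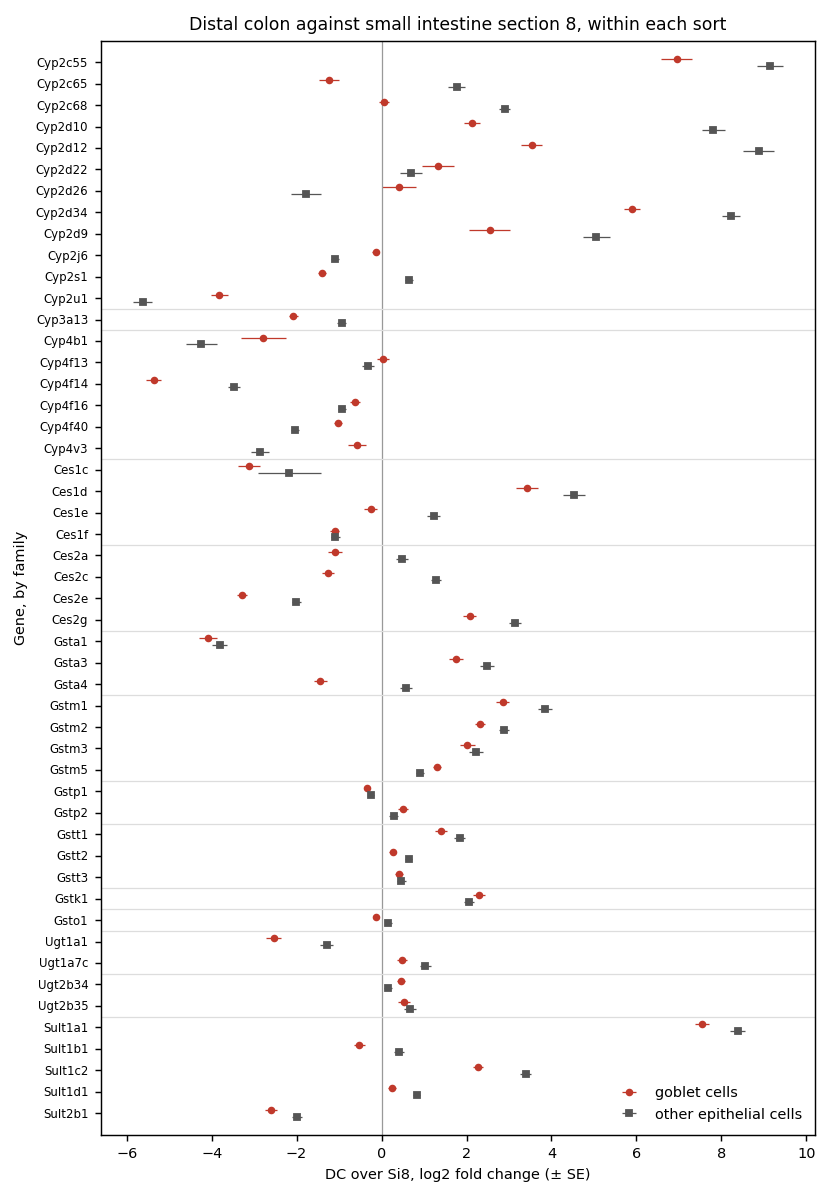
Log2 fold change ± SE of DC over Si8 in goblet cells (circles) and in other epithelial cells (squares) for 50 members whose mean reached 10 CPM in a group, by family; Cyp3a25 is left out for its 1 count in the DC groups. Cyp2c55, Cyp2d34, Cyp2d12 and Sult1a1 lie far to the right in both sorts, Cyp4f14 and Cyp2u1 to the left, and Ces2a, Ces2c, Cyp2c65, Cyp2s1, Gsta4 and Sult1b1 are left of 0 in goblet and right of 0 in other cells.

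Across regions 33 members were higher in DC in both sorts and 19 were lower in both, against 22.4% and 22.3% of all tested genes. Ces2a, Ces2b, Ces2c, Cyp2c65, Cyp2s1, Gsta4 and Sult1b1, 7 in all, were lower in DC than in Si8 goblet cells but higher in DC than in Si8 other cells, against 1.89% of all tested genes, and no member had the opposite pair of calls, which 1.66% of all tested genes had. For all 7 the DC goblet mean was the lowest of the 4 groups. Ces2c shows the pattern, with a goblet-cell difference between regions of −1.25 ± 0.14, adjusted p = 2.97e-07 and an other-cell difference of 1.28 ± 0.12, adjusted p = 1.74e-08. The region comparisons use the same libraries as the sort comparisons, so these calls are not separate evidence. Depth and region went together in these libraries, and the part of depth in region differences was not tested.

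The other genes of the pathway were taken from lists outside the families. Of 33 tested further phase I genes, 6 were higher and 21 lower in DC goblet cells and 4 higher and 20 lower in Si8 goblet cells. Over all tested genes 27.8% were higher and 27.9% lower in DC goblet and 33.1% higher and 31.8% lower in Si8 goblet cells, which also stands beside the lists that follow. By region 30.6% of all genes were higher and 31.5% lower in DC goblet cells and 33.3% higher and 33.6% lower in DC other cells. The extremes were Fmo5, a flavin monooxygenase, with a goblet effect of −3.28 ± 0.38 in DC, Ephx1, the microsomal epoxide hydrolase, with 0.63 ± 0.13 in DC, Akr1b7 with −3.23 ± 0.22 in Si8 and Pon3 with 0.45 ± 0.07 in Si8. By region the list had 18 higher and 9 lower in DC goblet cells and 18 higher and 12 lower in DC other cells. Adh1, an alcohol dehydrogenase, averaged 527 CPM in DC goblet against 9.08 CPM in Si8 goblet cells (5.86 ± 0.15, adjusted p = 6.98e-17). Of 18 tested genes of further conjugation and cofactor supply, 5 were higher and 11 lower in DC goblet and 4 higher and 10 lower in Si8 goblet cells. Ugdh, which makes the UDP-glucuronic acid that Ugt enzymes use, averaged 46.1 ± 3.97 CPM in DC goblet and 261 ± 18.3 CPM in DC other cells (−2.50 ± 0.09, adjusted p = 1.39e-14). Slc35b2, which carries the sulfate donor into the Golgi, was higher in goblet cells of both regions (1.02 ± 0.09, adjusted p = 1.51e-08 in DC; 0.73 ± 0.09, adjusted p = 1.03e-06 in Si8). Ggt1, which breaks down glutathione at the cell surface, averaged 41.8 ± 7.24 CPM in Si8 goblet and 542 ± 127 CPM in Si8 other cells (−3.70 ± 0.17, adjusted p = 4.52e-12). By region that list had 5 higher and 9 lower in DC goblet cells and 11 higher and 6 lower in DC other cells.

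Of 19 transporters of drugs and conjugates, 2 were higher and 15 lower in DC goblet cells and 5 higher and 12 lower in Si8 goblet cells, with a median log2 fold change of −1.55 in DC and −1.18 in Si8, against 0.03 over all genes in each region and the shares of all genes called given above. Slc15a1, the peptide transporter that also takes up beta-lactams, averaged 7.27 ± 2.51 CPM in DC goblet and 323 ± 40.7 CPM in DC other cells (−5.50 ± 0.31, adjusted p = 5.1e-10). Slco4a1 was higher in DC goblet cells (1.69 ± 0.19, adjusted p = 2.15e-07), Abcc4, an exporter of conjugates, was higher in Si8 goblet cells (1.35 ± 0.09, adjusted p = 1.95e-10) and Slc47a1, a cation exporter, was lower there (−4.41 ± 0.44, adjusted p = 2.72e-07). The transporter list had 2 higher and 14 lower in DC than in Si8 goblet cells and 4 higher and 10 lower in DC than in Si8 other cells, and its goblet effect was lower in DC for 11 and higher for 2, against 16.5% and 15.6% of all genes.

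Of 24 tested regulators, 1 was higher and 15 lower in DC goblet cells and 2 higher and 18 lower in Si8 goblet cells, against 27.8% of all genes higher and 27.9% lower in DC and 33.1% and 31.8% in Si8. Nr1i2, the pregnane X receptor, stood at 36.5, 43.4, 40.9 and 40.3 CPM in the DC goblet libraries, against 101, 90.2, 103 and 100.2 CPM in the DC other libraries. In Si8 Nr1i2 stood at 44.3, 52.0, 44.0 and 41.9 CPM in the Si8 goblet libraries, against 129.7, 125, 158 and 162 CPM in the Si8 other libraries. The sorts did not overlap, with goblet effects of −1.29 ± 0.10, adjusted p = 6.56e-10 in DC and −1.66 ± 0.09, adjusted p = 1.45e-11 in Si8. Hnf4a averaged 323 ± 14.9 CPM in DC goblet and 896 ± 82.9 CPM in DC other cells (−1.47 ± 0.09, adjusted p = 4.29e-11). In Si8 Hnf4a averaged 841 ± 49.5 CPM in goblet and 1358 ± 123 CPM in other cells (−0.69 ± 0.09, adjusted p = 1.43e-06). Its goblet effect was lower in DC by −0.78 ± 0.13, adjusted p = 6.86e-05. Nr1i3, the constitutive androstane receptor, was low, at 0.216 CPM in DC goblet and 3.4996 CPM in DC other cells (−3.96 ± 0.36, adjusted p = 1.69e-08). Ahr passed in neither goblet comparison (−0.16 ± 0.09, adjusted p = 0.139 in DC; −0.12 ± 0.09, adjusted p = 0.25 in Si8) and was higher in the colon in goblet (0.47 ± 0.09, adjusted p = 0.00017) and other cells (0.51 ± 0.09, adjusted p = 5.12e-05). Of the 3 tested Ahr targets outside the families, 2 were lower in DC goblet and 3 in Si8 goblet cells. Nfe2l2, the regulator of antioxidant genes, was lower in goblet cells by −0.47 ± 0.10, adjusted p = 0.000396 in DC and by −0.23 ± 0.10, adjusted p = 0.0476 in Si8, and of its 11 targets outside the families 2 were higher and 7 lower in DC goblet and 3 higher and 6 lower in Si8 goblet cells. Among these targets Slc7a11, the cystine transporter, was higher in goblet cells of both regions (2.05 ± 0.19, adjusted p = 1.64e-08 in DC; 3.13 ± 0.20, adjusted p = 7.55e-11 in Si8), and Srxn1, which repairs peroxiredoxins, was lower in both (−2.14 ± 0.11, adjusted p = 2.9e-12 in DC; −1.80 ± 0.10, adjusted p = 1.79e-11 in Si8).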

How the data were processed

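RNA of 16 libraries, 4 per group, was measured by stranded total RNA sequencing after ribosomal RNA removal, per the labels' protocols. The authors deposited raw read counts per gene in a table for each region, each listing 46882 genes, and a table of normalized values that was not used here. Per the submitters' processing notes, the build was mm10 and the tools named were STAR 2.4.0f, DESeq2 1.14, HTSeq 0.6.1p1 and FastQC 0.11.2, without parameters; the strand setting of the counting is not known here. Samples were grouped by their titles.

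From the deposited counts, 4 rows whose symbol was listed more than once were left out, and the region tables were joined by symbol. One edgeR 4.0.16 fit (R 4.3.3, limma 3.58.1) covered the 4 groups and 16001 genes that passed filterByExpr, with TMM scaling, robust quasi-likelihood dispersion and Benjamini-Hochberg adjustment over all tested genes, with a call under 0.05; the biological coefficient of variation was 0.128. The method was tested on simulated data. The 37 mitochondrially encoded genes were at 0 in every DC library and cannot be told apart from region. CPM used TMM-scaled totals, and levels per kb used exon-union lengths from GENCODE M21 (GRCm38, the mm10 assembly), which listed 158 of 159 members. A member was called uncertain where at least 50% of a transcript had a copy of at least 97% identity over 100 bases or more elsewhere (BLAST 2.17.0), which held for 32 members. RefSeq promoter windows, 250 bases before to 50 after the start, were found for 133 members, 43 of the 51 at 10 CPM or more, and were aligned with Biopython 1.88.

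Members were named with values where a group mean reached 10 CPM; size, SE and adjusted p were given for up to 6 members in each direction of each contrast, by fold among called members without overlap, and further members in families carry them for context. Members and lists were chosen with earlier results of these data known, and no list was tested as a set. Ratios against 1 to 3 counts carry a 95% interval, and 0 counts were set to a floor of 3 over the 4 libraries of a group; both cover counting error only. Alternatives were DESeq2 1.42.0, other scalings, filters and fits, a fold rule, and each library left out in turn.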

Additional observations from a re-analysis of the deposited data

Results flagged for a closer look

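By Dixon's test 1 library stood apart from the 3 others of its group for 16 of 204 combinations of a member at 10 CPM or more and a group, where chance gives about 1 in 20. The highest library was Ces1f at 61.5 CPM in Si8 goblet library 3, against 45.8 CPM in the nearest library, Ces2g at 20.0 CPM in DC other library 1, against 17.0 CPM in the nearest library, Ces2g at 2.44 CPM in Si8 other library 2, against 1.81 CPM in the nearest library and Cyp2d10 at 2.55 CPM in Si8 goblet library 3, against 1.58 CPM in the nearest library. Also highest were Cyp2d22 at 3.16 CPM in DC goblet library 2, against 2.22 CPM in the nearest library, Cyp2d22 at 25.7 CPM in DC other library 4, against 22.8 CPM in the nearest library, Cyp2d9 at 23.3 CPM in DC other library 4, against 14.7 CPM in the nearest library and Cyp3a25 at 0.0604 CPM in DC other library 4, against 0 CPM in the nearest library. Further highest values were Gsta1 at 34.3 CPM in Si8 other library 1, against 24.8 CPM in the nearest library, Gstt1 at 5.61 CPM in Si8 other library 4, against 3.90 CPM in the nearest library, Gstt2 at 32.5 CPM in DC goblet library 1, against 29.2 CPM in the nearest library and Gstt2 at 27.7 CPM in DC other library 2, against 25.8 CPM in the nearest library. The last of these was Sult1c2 at 7.94 CPM in Si8 goblet library 2, against 5.68 CPM in the nearest library. The lowest library was Gstm2 at 51.5 CPM in DC goblet library 3, against 60.4 CPM in the nearest library, Sult1b1 at 27.1 CPM in Si8 goblet library 2, against 38.8 CPM in the nearest library and Sult1c2 at 25.6 CPM in DC goblet library 1, against 30.8 CPM in the nearest library. These fell in the groups as 4 in DC goblet, 5 in DC other, 4 in Si8 goblet and 3 in Si8 other libraries. The single read of Cyp3a25 in a DC library is within counting error.

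The goblet effect differed between the regions by the test of the difference for 34 members at 10 CPM or more, given as the log2 difference, DC minus Si8. It was lower in DC for Cyp2d10 (−5.68), Cyp2d12 (−5.34), Cyp2c65 (−3.0), Cyp2c68 (−2.85), Ces2c (−2.53), Cyp2d9 (−2.51), Cyp2d34 (−2.32), Cyp2c55 (−2.19) and Cyp2s1 (−2.05). Smaller negative differences were those of Gsta4 (−2.02), Cyp4f14 (−1.89), Ces2a (−1.58), Ces1e (−1.48), Ces2e (−1.28), Ugt1a1 (−1.25), Cyp3a13 (−1.13), Sult1c2 (−1.13), Ces1d (−1.10) and Ces2g (−1.07). The smallest were those of Gstm1 (−1.0), Sult1b1 (−0.93), Sult1a1 (−0.84), Gsta3 (−0.73), Sult2b1 (−0.62), Sult1d1 (−0.58), Gstm2 (−0.56), Ugt1a7c (−0.54) and Gstt2 (−0.37). It was higher in DC for Cyp4v3 (2.30), Cyp2d26 (2.20), Cyp2u1 (1.80), Cyp4f40 (1.02), Cyp2j6 (0.95) and Gstm5 (0.40). The calls lost most often under alternative settings were those of Gstm5 in 14, Ces1d in 9 and Sult1a1 in 8 of 22. Colonic and small intestinal absorptive markers also differed in how far they were reduced in the goblet sorts, with summed levels at 4.79% of other cells in DC for the colonic list and 9.73% in Si8 for the small intestinal list, and medians over single markers of 2.68% and 6.94%, and their part in these differences was not tested.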

How the results depend on the processing

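The counts of called members kept within 1.5 times under DESeq2, other scalings, other filters, no mitochondrial genes and fits of 2 groups alone. They moved more when a call also needed a log2 fold change of at least 1: 1 member was then higher in DC goblet cells in place of 8, 8 were higher and 27 lower in Si8 goblet cells in place of 14 and 42, and 5 had a higher goblet effect in DC in place of 8. With each library left out in turn, members higher in DC goblet cells numbered 5 to 10, with 5 without DC other library 3 or DC goblet library 1, and members lower there 42 to 47. In Si8 goblet cells they numbered 13 to 15 higher and 37 to 44 lower. Between regions they numbered 34 to 37 higher and 25 to 27 lower in DC goblet cells, and 44 to 48 higher and 21 to 25 lower in DC other cells. The goblet effect was higher in DC for 6 to 11 and lower for 30 to 36. Of 5811 values of single members under alternatives, 5635 kept their direction and side of the threshold, 108 lost and 67 gained a call, and 1 reversed: Gstp1 in DC over Si8 other cells was −0.25, and 0.025 with totals not scaled by TMM. Such totals moved the median of all genes to 0.13 in DC goblet over other cells, 0.32 in DC over Si8 goblet cells and 0.27 in DC over Si8 other cells, so region differences of that size cannot be told apart from scaling. The cause of the other changes was not tested. Lower depth in DC limits genes under about 1 CPM there. No paired analysis was made because the labels give no pairs or animals shared between groups. Sample titles carry numbers, but the labels do not say that these mark pairs.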
